A study of Arabidopsis thaliana with 6 samples.

Results

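The 40 loci described here make up the aliphatic glucosinolate pathway of the thale cress Arabidopsis thaliana together with the myrosinase system that breaks its products down. They were listed by locus identifier and pathway role, with earlier results of these data known: 3 MYB regulators, 9 genes of chain elongation, 13 of the core pathway, 7 of side-chain modification, 2 of sulfate activation, 2 of transport and 4 of the myrosinase system. Of the 40, 39 had a row in the table of 32948 genes. AOP2 (AT4G03060), which the TAIR10.1 annotation lists as a transcribed pseudogene, was the locus without a row. Its expression was not analysed here, while its upstream sequence is among those counted further on. RNA captured by its poly(A) tail was sequenced from seedlings of 2 genotypes, the mutant line cnd1-3 and the wild type Col-0, with 3 libraries of each, to compare their gene expression. The labels give no other allele, treatment, growth condition or age, and do not state whether libraries of 1 genotype stem from separate plants. All p-values therefore measure the spread between these libraries, which may be technical. No source used here ties CND1 to a locus, so the genotype labels were not checked on the mutated gene.

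Glucosinolates are sulfur-containing defence compounds of the cabbage family. The aliphatic ones are made from methionine, whose side chain is first lengthened, mostly in the chloroplast, before the core pathway turns it into a thioglucoside and a sulfotransferase adds sulfate. They are stored apart from the myrosinases, thioglucosidases that meet them when tissue is crushed, and specifier proteins then steer the breakdown toward nitriles or isothiocyanates. MYB28 and MYB29 are the main transcriptional activators of the aliphatic branch, and MYB76 is a lesser one beside them.

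In cnd1-3 transcripts of MYB28, MYB29, GSTF10, UGT74C1, ESP and ESM1 fell, to between 59.5% and 78.7% of their Col-0 means, and no pathway gene rose. Transcript levels are FPKM, read counts divided by exon length and by the library's total, and the test was limma on log2 of FPKM plus 0.5, with p-values adjusted over all 17096 genes that averaged at least 0.5 FPKM. Of the 40 loci, 34 reached that level. Of those 34, 6 (17.6%) passed an adjusted p of 0.05, all lower, while 7.59% of all tested genes were called lower, 3.5% higher and 11.1% in either direction. At an unadjusted p under 0.05 stood 11 of the 34, and 4893 of all 17096 tested genes. The median log2 fold change was -0.14 over the 34 genes, from -0.69 to 0.57, against -0.05 over all tested genes. Of the 34, 24 lay below 0 and 10 above, while 59.9% of all tested genes lay below 0. Libraries of the 2 genotypes did not overlap for 10 of the 34, 8 of them lower and 2 higher in cnd1-3, where 33.9% of all tested genes did not overlap (21.5% lower and 12.3% higher). The regulators and the myrosinase system had the lowest medians of the 7 steps, at -0.43 and -0.48, and chain elongation and side-chain modification had medians of 0.10 and 0.02.

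**Figure D1:**
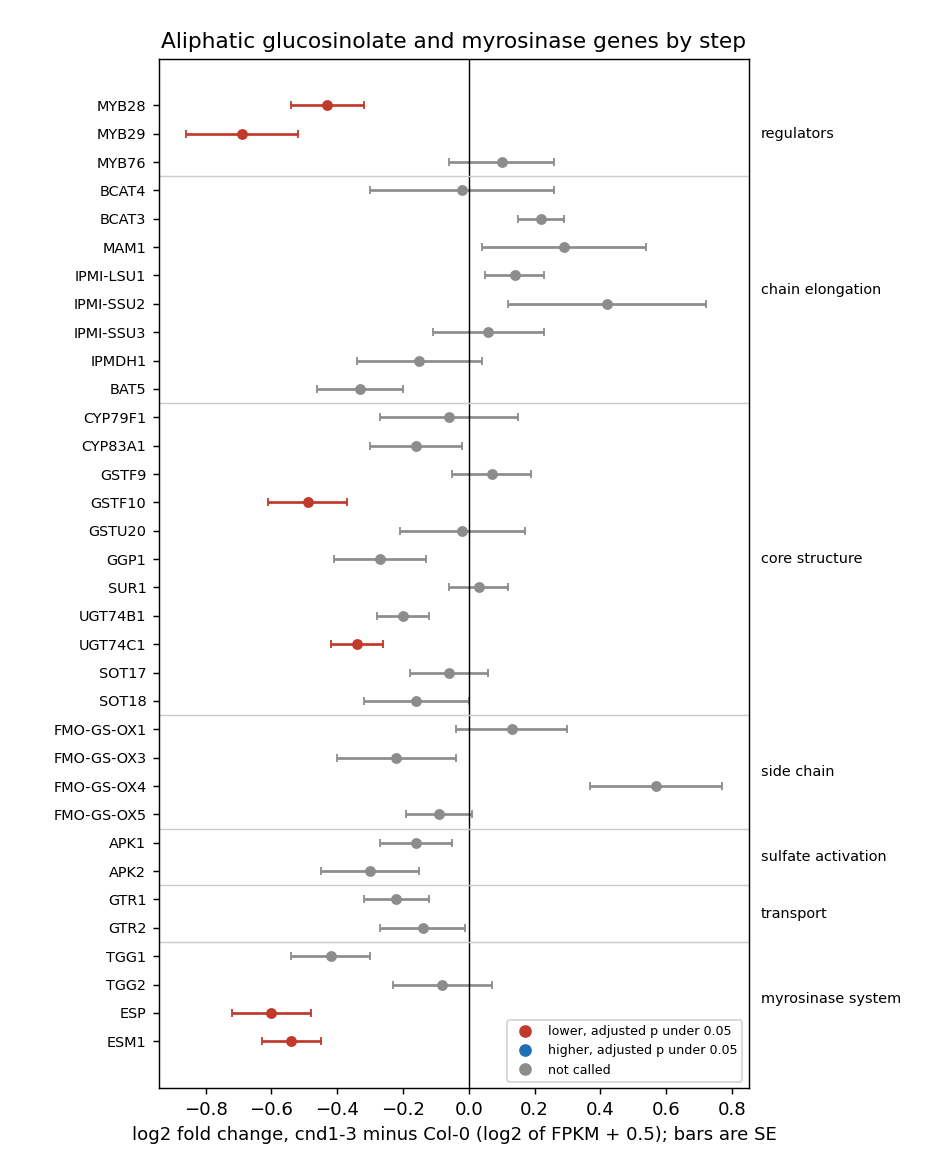
Log2 fold change of FPKM plus 0.5, cnd1-3 minus Col-0, for the 34 tested genes grouped by pathway step, with bars of 1 standard error and colour for the call at an adjusted p of 0.05. The 6 called genes all lie left of 0, and the elongation and side-chain genes lie on both sides of it.

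As recovered from FPKM and exon length, the cnd1-3 libraries held 22125816 to 23081867 assigned reads and the Col-0 libraries 23290030 to 30455905. Log2 levels correlated across genes at 0.989 to 0.992 within a genotype and at 0.974 to 0.98 between genotypes. The third cnd1-3 library stood apart for most of these genes, and for some genes of sulfate assimilation described further on. It was the highest of the 3 cnd1-3 libraries for 30 of the 34 genes (88.2%), where 30.5% of all tested genes had their highest cnd1-3 value in it, and the 4 exceptions were GTR1, TGG1, TGG2 and ESP. All 19 tested genes that serve the aliphatic branch alone were highest there, with a median of 0.56 on the log2 scale above the mean of the other cnd1-3 libraries, and 1.46% of all tested genes lay at least that far above. The excess had a median of 0.67 for chain elongation, 0.60 for side-chain modification, 0.44 for the core, 0.35 for the regulators and 0.02 for the myrosinase system. On the second principal component of all genes, which held 14.4% of the variance, the third libraries of both genotypes lay at the same end (-13.4 in cnd1-3 and -18.9 in Col-0). In Col-0 the aliphatic genes of the third library had a median of 0.03 relative to the other libraries. Without the third cnd1-3 library, 9 pathway genes were called lower and 0 higher by limma, where 4.88% of all tested genes were then lower, and the median over the pathway was -0.27. Without the first or the second cnd1-3 library, 1 pathway gene (ESM1) was called, where 3.78% and 4.43% of all tested genes were lower.

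The labels call the material seedlings. Of 9 root markers, 7 were under 1 FPKM in every library, and the root hair genes EXPA7, PRP1 and LRX1 were listed at 0. The other 2 were expressed and were higher in every cnd1-3 library than in any Col-0 library: SCR averaged 10 ± 0.375 and 8.74 ± 0.17 FPKM, and TIP1;1, most of the list's sum, 349 ± 21.6 and 288 ± 31.6 FPKM. Neither was called (limma adjusted p = 0.128 and 0.0843), but TIP1;1 was called higher with median-ratio scaling (0.0365) and the replicate block (0.0176) and SCR with quantile normalization (0.0489). The root markers summed to 335 to 374 FPKM in cnd1-3 and 261 to 321 in Col-0, and their part in the results on the pathway was not tested. The root myrosinases TGG4 and TGG5 were also listed at 0. The 7 shoot markers, genes of photosynthesis, summed to 70557 to 77591 FPKM in cnd1-3 and 74525 to 75885 in Col-0. Of the 7, 1 fell, LHCB1.2 (-0.38, SE 0.09, limma adjusted p = 0.0301), while 7.59% of all tested genes were called lower. LHCB1.2 lost that call with median-ratio scaling (0.115), quantile normalization (0.462) or no minimum level (0.28), without cnd1-3 library 1, 2 or 3 (0.0781, 0.122 and 0.0791) and without Col-0 library 2 or 3 (0.0601 and 0.0637). In samples of whole tissue, fewer cells of a type and less RNA per cell cannot be told apart.

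The 250 bases before the annotated start are shown for 6 genes: a regulator, an elongation gene, 2 core genes and the 2 genes of the myrosinase system that fell. They were read from the TAIR10.1 assembly on the strand of the gene, and capitals mark exact matches, on either strand, to the letters ACCTAC and ACCAAC, which form the core of elements bound by MYB factors of the R2R3 type, and to CACGTG, the G-box bound by bHLH factors such as the MYC proteins. MYB28 starts on the minus strand (chr5:24691188-24691437), BCAT4 on the minus strand (chr3:6849583-6849832), CYP83A1 on the minus strand (chr4:7992430-7992679), SOT17 on the plus strand (chr1:6398281-6398530), ESP on the minus strand (chr1:20173950-20174199) and ESM1 on the plus strand (chr3:4729149-4729398).
MYB28: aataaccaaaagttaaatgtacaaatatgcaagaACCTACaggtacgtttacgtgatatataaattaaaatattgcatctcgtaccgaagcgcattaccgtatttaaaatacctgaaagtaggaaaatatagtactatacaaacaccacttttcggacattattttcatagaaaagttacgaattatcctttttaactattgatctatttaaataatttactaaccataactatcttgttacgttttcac
BCAT4: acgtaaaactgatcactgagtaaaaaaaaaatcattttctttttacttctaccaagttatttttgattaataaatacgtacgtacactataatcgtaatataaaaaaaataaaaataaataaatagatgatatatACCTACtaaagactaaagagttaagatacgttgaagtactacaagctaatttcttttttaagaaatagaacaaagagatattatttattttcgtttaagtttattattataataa
CYP83A1: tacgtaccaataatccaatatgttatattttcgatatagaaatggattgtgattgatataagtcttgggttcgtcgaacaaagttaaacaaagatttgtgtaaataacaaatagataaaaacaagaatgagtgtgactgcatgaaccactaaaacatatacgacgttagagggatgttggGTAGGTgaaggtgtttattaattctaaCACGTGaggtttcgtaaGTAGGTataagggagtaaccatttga
SOT17: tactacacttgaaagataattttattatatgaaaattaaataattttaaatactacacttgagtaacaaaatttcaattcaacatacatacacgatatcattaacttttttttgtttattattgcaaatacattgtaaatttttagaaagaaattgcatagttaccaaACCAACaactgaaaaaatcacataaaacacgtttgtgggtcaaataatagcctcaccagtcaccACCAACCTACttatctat
ESP: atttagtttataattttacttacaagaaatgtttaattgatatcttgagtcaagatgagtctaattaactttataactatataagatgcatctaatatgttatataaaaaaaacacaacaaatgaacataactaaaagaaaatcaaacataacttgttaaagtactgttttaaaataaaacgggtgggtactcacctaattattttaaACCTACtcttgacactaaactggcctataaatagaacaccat
ESM1: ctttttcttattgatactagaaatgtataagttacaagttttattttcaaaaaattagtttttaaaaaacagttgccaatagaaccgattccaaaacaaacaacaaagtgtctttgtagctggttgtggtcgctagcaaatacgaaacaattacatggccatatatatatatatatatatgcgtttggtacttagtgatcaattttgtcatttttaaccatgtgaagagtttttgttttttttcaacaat
Counted from the start, whose preceding base is -1, the ACCTAC match begins at -216 in MYB28, at -115 in BCAT4 and at -42 in ESP. CYP83A1, the monooxygenase that oxidises aliphatic aldoximes, holds 2 ACCTAC matches, both on the other strand and so printed as GTAGGT, around a CACGTG match that begins at -43. In SOT17, a sulfotransferase of the last core step, an ACCAAC match that begins at -18 overlaps the ACCTAC match that begins at -14. ESM1 holds none of the 3 motifs in this window, and neither do MYB29, GSTF10 and UGT74C1, which also fell and are not shown. The genes shown follow no set rule, and all of them except ESM1 hold ACCTAC, so they do not represent the 40 loci. Over the 40 loci, 7 windows (17.5%) held ACCTAC, 9 (22.5%) held ACCAAC and 3 (7.5%) held CACGTG, while 4.6%, 11.5% and 6.49% of 27443 windows of the same length before annotated genes did. These are matches of letters and describe no bound site.

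Among the regulators, MYB28 and MYB29 fell and MYB76 was not called, while 7.59% of all tested genes were called lower. MYB28 (AT5G61420, chromosome 5, 24689069 to 24691187) was at 25.8, 28.3 and 34.5 FPKM in cnd1-3 libraries 1, 2 and 3 and at 36.0, 43.6 and 39.9 FPKM in Col-0. All cnd1-3 libraries lay below all Col-0 libraries, with means of 29.5 ± 4.48 and 39.8 ± 3.77 FPKM (SD, n = 3). Its log2 fold change was -0.43 (SE 0.11, limma adjusted p = 0.0452). MYB29 (AT5G07690, chromosome 5, 2446669 to 2448584), the second activator, was at 3.47, 4.62 and 5.28 FPKM in cnd1-3 and at 7.02, 9.18 and 6.28 in Col-0. Again no library of one genotype reached into the other, and the means were 4.46 ± 0.916 and 7.49 ± 1.51 FPKM, which is 59.5% of the Col-0 mean. The log2 fold change of MYB29 was -0.69 (SE 0.17, limma adjusted p = 0.0345). MYB76 (AT5G07700), which lies next to MYB29 on the same strand, was at 0.789, 0.707 and 0.819 FPKM in cnd1-3 and at 0.578, 0.743 and 0.755 in Col-0. Those groups overlap, and with 80 and 84 reads in all the log2 fold change was 0.10 (SE 0.16, adjusted p = 0.74). MYB28 lost its call without cnd1-3 library 1 (limma adjusted p = 0.141) or 2 (0.121) and without Col-0 library 1 (0.0517), 2 (0.144) or 3 (0.0792), and MYB29 lost it without cnd1-3 library 1 (0.0999) or 2 (0.0738) and without Col-0 library 1 (0.07) or 2 (0.104). MYB28 also lost it with median-ratio scaling (0.0632), quantile normalization (0.0535), no minimum level (0.0759) and a variance prior without trend (0.0807), and MYB29 with the last pair of settings (0.0707 and 0.0575).

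**Figure D2:**
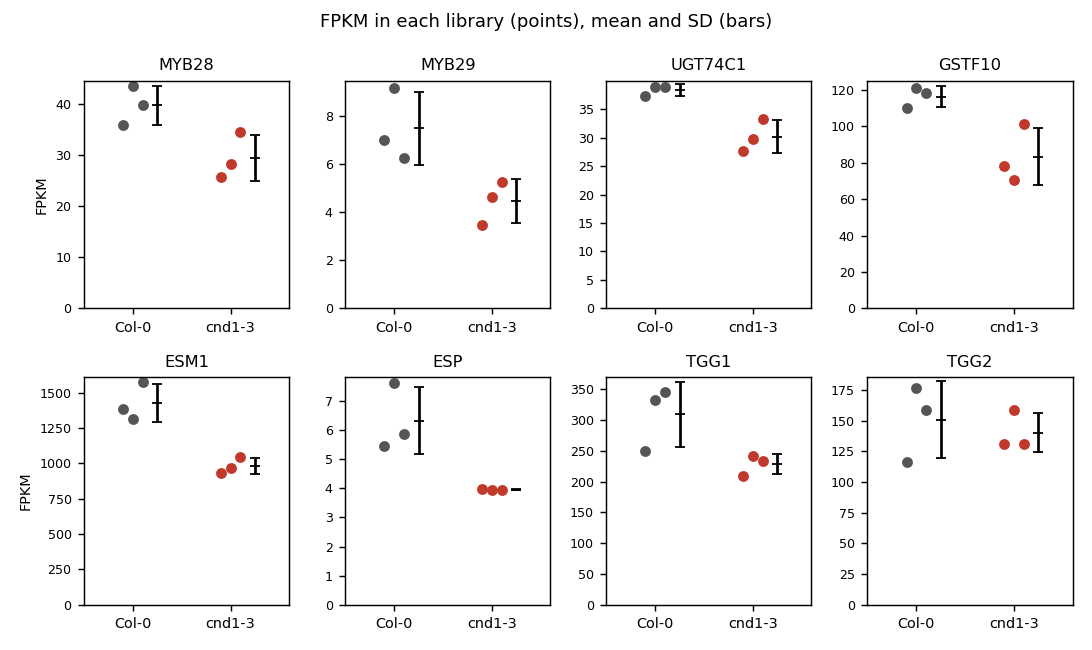
FPKM in each library for the 6 genes that fell and for TGG1 and TGG2, which were not called. Each library is 1 point, bars give the mean and SD of 3 libraries, and each axis starts at 0. In every panel except that of TGG2, where the genotypes overlap, the 3 cnd1-3 points lie below the 3 Col-0 points. ESP is at 3.94 to 3.98 FPKM in all cnd1-3 libraries.

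Of the 9 chain elongation genes, 8 were tested and none was called by limma, while 11.1% of all tested genes were called. Of the 8, 2 reached an unadjusted p under 0.05, as did 4893 of all 17096 tested genes. MAM1 (AT5G23010), the methylthioalkylmalate synthase that condenses the lengthening chain with acetyl-CoA, was at 24.2, 24.0 and 50.3 FPKM in cnd1-3 and at 23.5, 25.5 and 26.6 in Col-0. The first pair of cnd1-3 libraries lay at the Col-0 level and the third was 2.08 times their mean. IPMI-SSU2 (AT2G43100), a small subunit of the isomerase, was at 7.97, 10.6 and 22.2 FPKM against 8.19, 10.5 and 8.92, so that the third library was 2.39 times the mean of the others. BCAT4 (AT3G19710), the aminotransferase that opens the elongation cycle, was at 7.11, 6.04 and 15.5 FPKM against 8.33, 9.35 and 9.03. Here the first pair of cnd1-3 libraries was below every Col-0 library and the third above, 2.35 times the mean of the others, and of its exonic bases 21.2% lie in an exon of a gene on the opposite strand. IPMDH1 (AT5G14200), a dehydrogenase of the cycle, followed the same order at 14.1, 14.1 and 23.7 FPKM against 16.0, 21.0 and 19.7. The log2 fold changes of these 4 genes were 0.29, 0.42, -0.02 and -0.15 (limma adjusted p = 0.482, 0.406, 0.974 and 0.649).

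The most abundant elongation genes differed less between libraries. IPMI-LSU1 (AT4G13430), the large isomerase subunit, which leucine synthesis also uses, was at 111, 115 and 137 FPKM in cnd1-3 and at 108, 105 and 116 in Col-0 (log2 fold change 0.14, SE 0.09, limma adjusted p = 0.347). BCAT3 (AT3G49680), a chloroplast aminotransferase that also serves branched-chain amino acids, was at 86.0, 81.0 and 90.7 FPKM against 74.2, 76.4 and 70.3. Its groups do not overlap, with cnd1-3 the higher one, but it missed the threshold (0.22, SE 0.07, limma adjusted p = 0.074) except with median-ratio scaling (0.0401). BAT5 (AT4G12030), which carries keto acids across the chloroplast envelope, was at 11.2, 9.29 and 14.0 FPKM against 13.9, 15.4 and 13.8, and was called lower only without the third cnd1-3 library (limma adjusted p = 0.0385, against 0.147 with it). The remaining small subunit, IPMI-SSU3, had a log2 fold change of 0.06 (limma adjusted p = 0.848). MAM3 (AT5G23020), a synthase for longer chains, was too low to test, with 6, 0 and 7 reads in cnd1-3 and 9, 0 and 11 in Col-0. Its read share in cnd1-3 was 0.771 of that in Col-0, with a 95% exact counting interval of 0.352 to 1.63 that covers counting error only.

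**Figure D3:**
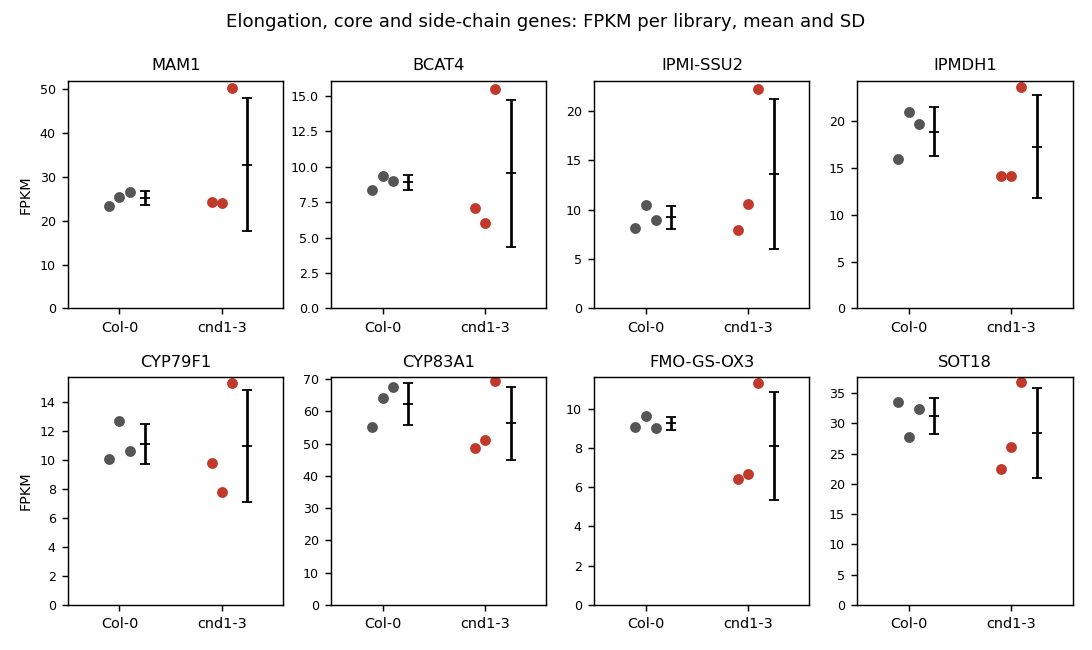
FPKM in each library for 8 genes of chain elongation, the core and side-chain modification, with 1 point per library in the order of the replicate numbers and bars for the mean and SD of 3 libraries; each axis starts at 0, and the genes were picked after their values were seen. The third cnd1-3 point is the highest cnd1-3 point in every panel, 1.39 to 2.39 times the mean of the other cnd1-3 points.

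Of the 13 core genes, 11 were tested, 2 fell (18.2%) and 9 were not called, while 7.59% of all tested genes were called lower. The median log2 fold change of the core was -0.16. GSTF10 (AT2G30870, chromosome 2, 13141290 to 13142676), a glutathione S-transferase assigned to the conjugation step, was at 78.3, 70.6 and 101 FPKM in cnd1-3 and at 109.8, 121 and 118 in Col-0. Its groups did not overlap, and the means were 83.5 ± 16.0 and 116 ± 5.55 FPKM (SD, n = 3), with a log2 fold change of -0.49 (SE 0.12, limma adjusted p = 0.0363). UGT74C1 (AT2G31790, chromosome 2, 13518199 to 13520364), a glucosyltransferase of the aliphatic branch, was at 27.6, 29.7 and 33.2 FPKM in cnd1-3 and at 37.2, 38.9 and 38.9 in Col-0. All cnd1-3 libraries were below all Col-0 libraries, at 30.2 ± 2.80 and 38.3 ± 1.01 FPKM, and the log2 fold change was -0.34 (SE 0.08, limma adjusted p = 0.0277). Of the exonic bases of UGT74C1, 18.6% lie in exons of genes on the opposite strand, and reads of such stretches cannot be told apart without strand, which is not given in the sources used here. GSTF10 kept its call in 1 of the 6 fits without a library, that without the third cnd1-3 library (limma adjusted p = 0.00447). The other 5 gave 0.117 and 0.0977 without cnd1-3 library 1 or 2 and 0.0647, 0.117 and 0.0703 without Col-0 library 1, 2 or 3. UGT74C1 likewise kept it only without the third cnd1-3 library (0.0198), against 0.102, 0.0849, 0.0542, 0.0871 and 0.0543 in the same order. Both lost the call with median-ratio scaling (0.0643 and 0.0554) and without the trend (0.0708 and 0.0569), and GSTF10 with no minimum level (0.0669).

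GSTF9 (AT2G30860), the most abundant core gene and the neighbour and close relative of GSTF10, was at 345, 379 and 491 FPKM in cnd1-3 and at 357, 394 and 391 in Col-0. The groups overlap and its log2 fold change was 0.07 (SE 0.12, limma adjusted p = 0.727). The log2 ratio of GSTF10 to GSTF9 was -2.13, -2.42 and -2.27 in cnd1-3 and -1.69, -1.71 and -1.73 in Col-0, so that the ratio was lower in every cnd1-3 library, by a mean of 0.56. The exact two-sided permutation test of that difference gave p = 0.1, the smallest that 3 against 3 libraries allow, and 0.25 after adjustment over the 10 pairs of genes compared.

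The enzymes at the entry of the core did not pass the test. CYP79F1 (AT1G16410), which turns elongated methionine into aldoximes, was at 9.80, 7.80 and 15.3 FPKM in cnd1-3 and at 10.1, 12.7 and 10.6 in Col-0. CYP83A1 (AT4G13770), the next enzyme, was at 48.5, 51.0 and 69.3 FPKM against 55.1, 64.0 and 67.7. In both genes the first pair of cnd1-3 libraries was below every Col-0 library and the third above, and the log2 fold changes were -0.06 and -0.16 (limma adjusted p = 0.868 and 0.49). CYP79F2 (AT1G16400), the neighbour of CYP79F1 that acts on longer chains, was too low to test, its 3 cnd1-3 libraries holding 8, 4 and 22 reads and its Col-0 libraries 33, 17 and 31. Its read share in cnd1-3 was 0.498 of that in Col-0, with a 95% exact counting interval of 0.323 to 0.752 that covers counting error only. The libraries overlap, since the third cnd1-3 library (0.472 FPKM) exceeded the second Col-0 library (0.320 FPKM). Between CYP79F1 and CYP79F2, 26 stretches of 75 bases are identical, which is 0.846% of those in the exons of CYP79F1.

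The later core steps lay close to or below Col-0. GGP1 (AT4G30530), a peptidase that trims the glutathione conjugate, was at 30.4, 30.8 and 44.0 FPKM in cnd1-3 against 38.8, 45.5 and 40.8, with a log2 fold change of -0.27 (SE 0.14, limma adjusted p = 0.248, and 0.0265 without the third cnd1-3 library). SUR1 (AT2G20610), the C-S lyase that all glucosinolates need, was at 36.1, 35.5 and 45.1 FPKM against 38.1, 37.4 and 38.3 (0.03, SE 0.09, adjusted p = 0.883). UGT74B1 (AT1G24100), the general glucosyltransferase, was at 28.5, 24.9 and 29.3 FPKM against 33.5, 32.3 and 29.6. Its groups do not overlap, and its log2 fold change was -0.20 (SE 0.08, limma adjusted p = 0.151). The log2 fold changes of the sulfotransferases SOT17 and SOT18 were -0.06 and -0.16 and that of the glutathione transferase GSTU20 was -0.02 (limma adjusted p = 0.795, 0.573 and 0.965). GSTF11 (AT3G03190) was listed at 0 in every library. All of its exonic bases lie within exons of AT3G03200 on the opposite strand. Among protein-coding genes with at least 95% of their exonic bases inside another gene, 453 of 487 (93.0%) were listed at 0 in every library, against 4988 of 19821 (25.2%) with none, so the 0 of GSTF11 cannot be read as absence of its transcript.

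**Figure D4:**
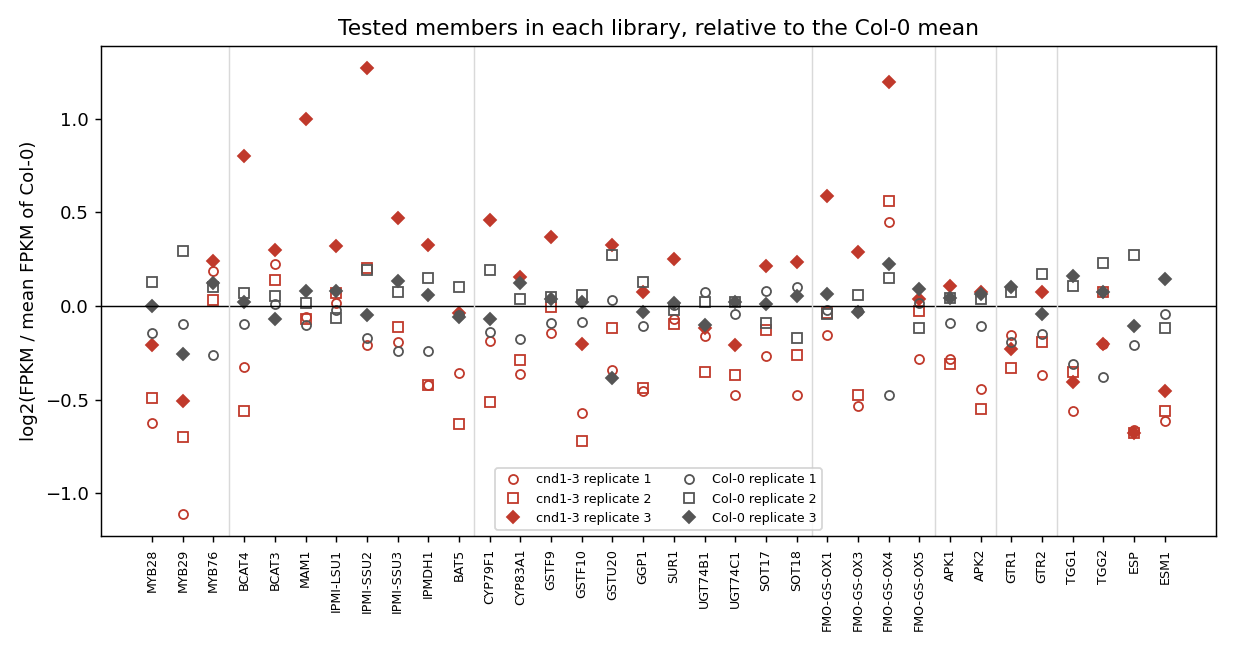
Log2 of FPKM over the mean FPKM of Col-0 for each of the 34 tested genes, ordered by pathway step, with 1 symbol per library and lines between the steps. The filled red symbol of the third cnd1-3 library is the highest red symbol for every elongation, core and side-chain gene, while all 3 red symbols of ESP and ESM1 lie below all grey ones.

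No side-chain gene was called by limma, with 4 of the 7 listed tested, while 11.1% of all tested genes were called. Of those 4, 1 had an unadjusted p under 0.05, as had 4893 of all 17096 tested genes. The FMO GS-OX enzymes are flavin monooxygenases that oxidise the sulfur of the side chain. FMO-GS-OX4 (AT1G62570) was at 1.6, 1.73 and 2.68 FPKM in cnd1-3 and at 0.844, 1.3 and 1.37 in Col-0. Every cnd1-3 library exceeded every Col-0 library, but the difference missed the threshold (log2 fold change 0.57, SE 0.20, limma adjusted p = 0.104). FMO-GS-OX3 (AT1G62560) was at 6.40, 6.67 and 11.3 FPKM against 9.09, 9.64 and 9.04, and FMO-GS-OX1 (AT1G65860) at 5.53, 6.02 and 9.27 FPKM against 6.08, 5.98 and 6.44. FMO-GS-OX3 was thus below every Col-0 library in the first pair and above them in the third, with a log2 fold change of -0.22 (SE 0.18, limma adjusted p = 0.469), and it was called lower only without that library (0.0233). The log2 ratio of FMO-GS-OX3 to FMO-GS-OX1 was 0.19, 0.14 and 0.27 in cnd1-3 and 0.54, 0.64 and 0.46 in Col-0, which do not overlap (exact two-sided permutation p = 0.1, adjusted p = 0.25). This ratio was lower in the third cnd1-3 library too. FMO-GS-OX5 (AT1G12140), the most abundant of the family here, was at 10.7, 12.8 and 13.4 FPKM against 13.2, 12.0 and 13.9, and 28.2% of its exonic bases lie in other genes. FMO-GS-OX2 had 43 reads over the cnd1-3 libraries against 32 in Col-0, a share 1.59 times as large. Its 95% exact counting interval of 0.985 to 2.6 covers counting error only. AOP3 (AT4G03050), a dioxygenase of the next modification, was listed at 0 in every library.

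APK1 and APK2, the adenosine phosphosulfate kinases that supply activated sulfate to the sulfotransferases, were not called. APK1 (AT2G14750) was at 21.9, 21.5 and 28.7 FPKM in cnd1-3 and at 25, 27.5 and 27.5 in Col-0 (log2 fold change -0.16, SE 0.11, limma adjusted p = 0.391). APK2 (AT4G39940) was at 21.9, 20.3 and 31.4 FPKM against 27.6, 30.6 and 31.1 (-0.30, SE 0.15, adjusted p = 0.223). Both were below all Col-0 libraries in the first pair of cnd1-3 libraries and above them in the third, and APK2 was called lower only without the third (limma adjusted p = 0.0172). GTR1 (AT3G47960) and GTR2 (AT5G62680), the transporters that load glucosinolates into the phloem, had log2 fold changes of -0.22 and -0.14 (limma adjusted p = 0.177 and 0.527). GTR1 was at 9.24, 8.17 and 8.77 FPKM against 9, 10.8 and 11, and 17% of its exonic bases lie in genes of the opposite strand.

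In the myrosinase system ESP and ESM1 fell, and all 4 genes lay below 0. Of all tested genes, 7.59% were called lower and 59.9% lay below 0. ESM1 (AT3G14210, chromosome 3, 4729399 to 4731847), which favours isothiocyanates over nitriles, was the most abundant transcript of the set at 931, 966 and 1042 FPKM in cnd1-3 and 1386, 1315 and 1574 in Col-0. The highest cnd1-3 library was well under the lowest Col-0 library, and the means were 979 ± 56.7 and 1425 ± 134 FPKM (SD, n = 3), with a log2 fold change of -0.54 (SE 0.09, limma adjusted p = 0.00668). ESM1 made up 35.6% to 39.3% of the summed FPKM of all listed genes in cnd1-3 and 41.6% to 46.8% in Col-0. Its call held in all 16 alternative fits, with a limma adjusted p of 0.0121 to 0.0375 when a library was left out. Of 1581 stretches of 75 bases in its exons, 399 also occur elsewhere in the genome, on chromosome 3 between 4726956 and 4729068, just upstream of the gene and outside any annotated gene. How the authors' counting treated reads that match both places is not given in the sources used here.

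ESP (AT1G54040, chromosome 1, 20170715 to 20173949), the epithiospecifier protein that diverts breakdown toward nitriles and epithionitriles, was at 3.98, 3.94 and 3.94 FPKM in cnd1-3 and at 5.45, 7.61 and 5.85 in Col-0. Its cnd1-3 libraries were nearly equal, the third included, and all lay below Col-0. The means were 3.96 ± 0.0237 and 6.30 ± 1.15 FPKM, which is 62.8% of Col-0, with a log2 fold change of -0.60 (SE 0.12, limma adjusted p = 0.0184). ESP missed the threshold narrowly without cnd1-3 library 1 (0.0588), 2 (0.0544) or 3 (0.0503) and held in the other 13 alternative fits.

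TGG1 (AT5G26000) and TGG2 (AT5G25980) encode the myrosinases of the shoot and lie close together on chromosome 5. TGG1 was at 209.7, 242 and 233 FPKM in cnd1-3 and at 249, 333 and 345 in Col-0, and TGG2 was at 131, 159 and 131 FPKM against 116, 177 and 159. The groups do not overlap for TGG1 and overlap for TGG2, with log2 fold changes of -0.42 (SE 0.12, limma adjusted p = 0.0604) and -0.08 (SE 0.15, adjusted p = 0.755). TGG1 passed the threshold without the first Col-0 library (0.00746) and with voom on recovered reads (0.0363). The log2 ratio of TGG2 to TGG1 was -0.67, -0.61 and -0.82 in cnd1-3 and -1.10, -0.91 and -1.12 in Col-0, higher in every cnd1-3 library (exact two-sided permutation p = 0.1, adjusted p = 0.25). Both genes are made in myrosin cells and guard cells. A joint list of 8 markers, which does not separate guard cells from myrosin cells, summed to 16.6 to 18.1 FPKM in cnd1-3 and 23.9 to 28.1 in Col-0. Of the 8, 4 were under 1 FPKM in every library. For CYP86A2, another of them, 41% of the exonic bases lie in genes of the opposite strand. All 5 tested markers lay below 0, as did 59.9% of all tested genes. KAT1, a guard cell potassium channel, fell from 10 ± 1.74 to 6.08 ± 0.328 FPKM (-0.67, SE 0.12, limma adjusted p = 0.0114). FAMA, the factor that specifies both cell types, had a log2 fold change of -0.38 (limma adjusted p = 0.228). The part of these cells in the values of TGG1, ESP and ESM1 was not tested.

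The other pairs of related genes gave no difference in ratio that separated the genotypes, except APK2 to APK1 (log2 ratios of -0.01, -0.08 and 0.13 in cnd1-3 and 0.14, 0.15 and 0.17 in Col-0, exact two-sided permutation p = 0.1, adjusted p = 0.25). The ratio of MYB29 to MYB28 differed by -0.26 and overlapped (p = 0.2, exact permutation). Ratios within the remaining 5 pairs also overlapped between the genotypes.

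Further genes of the pathway and of sulfur supply were read from lists of relatives. Of 8 further regulators, 6 were tested, 1 fell and 1 rose, while 7.59% of all tested genes were called lower and 3.5% higher. MYC4 (AT4G17880), a bHLH partner of the MYB regulators, was at 4.16, 4.23 and 4.53 FPKM in cnd1-3 and at 6.96, 6.68 and 6.51 in Col-0, with no overlap (log2 fold change -0.59, SE 0.08, limma adjusted p = 0.00384). MYC3, its closest relative in the list, averaged 16.5 ± 0.851 and 18.4 ± 0.85 FPKM (adjusted p = 0.23). MYC2 was listed at 0 in every library, with 98.5% of its exonic bases inside a gene on the opposite strand. SDI2 (AT1G04770), a relative of a repressor of glucosinolate synthesis under sulfur shortage, was at 3.04, 3.27 and 2.40 FPKM against 0.844, 2.1 and 1.1, which is a rise in every cnd1-3 library over every Col-0 library (0.93, SE 0.23, limma adjusted p = 0.0386). Its call was lost without any single cnd1-3 library (0.114, 0.11 and 0.0562) and without Col-0 library 1 (0.0928) or 3 (0.082), as well as with no minimum level (0.0759) and without the trend (0.057), and 27.4% of its exonic bases lie in a gene of the opposite strand.

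Relatives of the elongation enzymes, most of them in leucine synthesis, held 2 rises among 7 tested genes, while 3.5% of all tested genes were called higher. IPMDH3 (AT1G31180), a dehydrogenase, had means of 66.9 ± 4.46 FPKM (cnd1-3) and 50.4 ± 3.49 FPKM (Col-0), a rise of 0.41 on the log2 scale (SE 0.08, limma adjusted p = 0.014), and was not called without the second library of either genotype (0.0539 in cnd1-3 and 0.0541 in Col-0). IPMS2 (AT1G74040), an isopropylmalate synthase, rose from 20.9 ± 0.843 to 27.3 ± 0.513 FPKM (0.37, SE 0.07, adjusted p = 0.00953). IPMDH1 of the aliphatic branch shares 27 identical stretches of 75 bases with IPMDH3. Among 6 tested relatives of the core and side-chain genes, 2 fell, both known for the indolic branch, while 7.59% of all tested genes were called lower. SOT16 (AT1G74100) fell from 16.8 ± 1.08 to 12.0 ± 0.861 FPKM (-0.47, SE 0.08, limma adjusted p = 0.0104). CYP83B1 (AT4G31500) fell from 50.2 ± 4.86 to 37.1 ± 0.388 FPKM (-0.43, SE 0.08, adjusted p = 0.0131), and stood at 0.0504 without the second Col-0 library.

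Of 10 tested genes of sulfate assimilation, 3 rose, 1 fell and 6 were not called, with a median log2 fold change of 0.21. Of all tested genes, 3.5% were called higher and 7.59% lower. The third cnd1-3 library was the highest cnd1-3 library for 8 of the 10 sulfate assimilation genes and for 30.5% of all tested genes. Examples are APS1 (69.1, 66.1 and 88.7 FPKM) and APR1 (9.36, 8.41 and 14.1 FPKM). APS4 (AT5G43780), an ATP sulfurylase, was at 10.9, 11.9 and 17.1 FPKM in cnd1-3 and at 30.1, 26.9 and 39.0 in Col-0, which is 41.5% of the Col-0 mean. Every cnd1-3 library lay below every Col-0 library (-1.25, SE 0.18, limma adjusted p = 0.00398), while APS1, APS2 and APS3 were not called (adjusted p = 0.583, 0.858 and 0.325). APR3 (AT4G21990), a reductase of activated sulfate, was at 12.5, 14.8 and 17.8 FPKM against 8.52, 8.65 and 8.20, a rise in all cnd1-3 libraries (0.78, SE 0.12, limma adjusted p = 0.00528). APR2 rose from 1.35 ± 0.152 to 2.11 ± 0.124 FPKM (0.50, SE 0.13, limma adjusted p = 0.0383), but 46.4% of its exonic bases lie in genes of the opposite strand and its call held in 1 of 6 fits without a library. Without cnd1-3 library 1, 2 or 3 its adjusted p was 0.135, 0.0903 and 0.0937, and without Col-0 library 1 or 2 it was 0.0958 and 0.0833, and with no minimum level it was 0.0565. SAL1, a phosphatase of a by-product of sulfation, named here outside the naming rule after its values were seen, was the remaining rise, from 48.5 ± 1.04 to 63.3 ± 1.84 FPKM (0.38, SE 0.06, adjusted p = 0.00604).

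Among 8 markers of sulfur shortage 2 were tested, and LSU2 rose, while 3.5% of all tested genes were called higher. LSU2 (AT5G24660) was at 11, 12.9 and 13.2 FPKM in cnd1-3 and at 6.02, 5.08 and 3.81 in Col-0, which is 249% of the Col-0 mean (log2 fold change 1.25, SE 0.15, limma adjusted p = 0.00176). SHM7 was not called (0.05, adjusted p = 0.801). The summed level of the 8 markers was 16.9 to 20.3 FPKM in cnd1-3 and 8.98 to 11.4 in Col-0, most of it LSU2 and SHM7. LSU1, BGLU30 and SULTR1;1 were listed at 0 in every library, and 6 of the 8 were under 1 FPKM throughout.

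Of 17 relatives of the breakdown genes, 6 were tested and 2 rose, while 3.5% of all tested genes were called higher. NSP5 (AT5G48180), a nitrile-specifier protein related to ESP, rose from 13.8 ± 0.689 to 21.0 ± 1.48 FPKM (0.59, SE 0.08, limma adjusted p = 0.00291), the opposite direction to ESP. NIT1 (AT3G44310), a nitrilase, rose from 175 ± 11.9 to 217 ± 18.5 FPKM (0.31, SE 0.08, adjusted p = 0.0462). NIT1 lost its call with median-ratio scaling (0.0507), quantile normalization (0.0787), no minimum level (0.0702) and no trend (0.0882), and without cnd1-3 library 1, 2 or 3 (0.111, 0.0653 and 0.123) or Col-0 library 1 or 2 (0.0938 and 0.137). GTR3, a relative of the transporters, was too low to test.

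**Figure D5:**
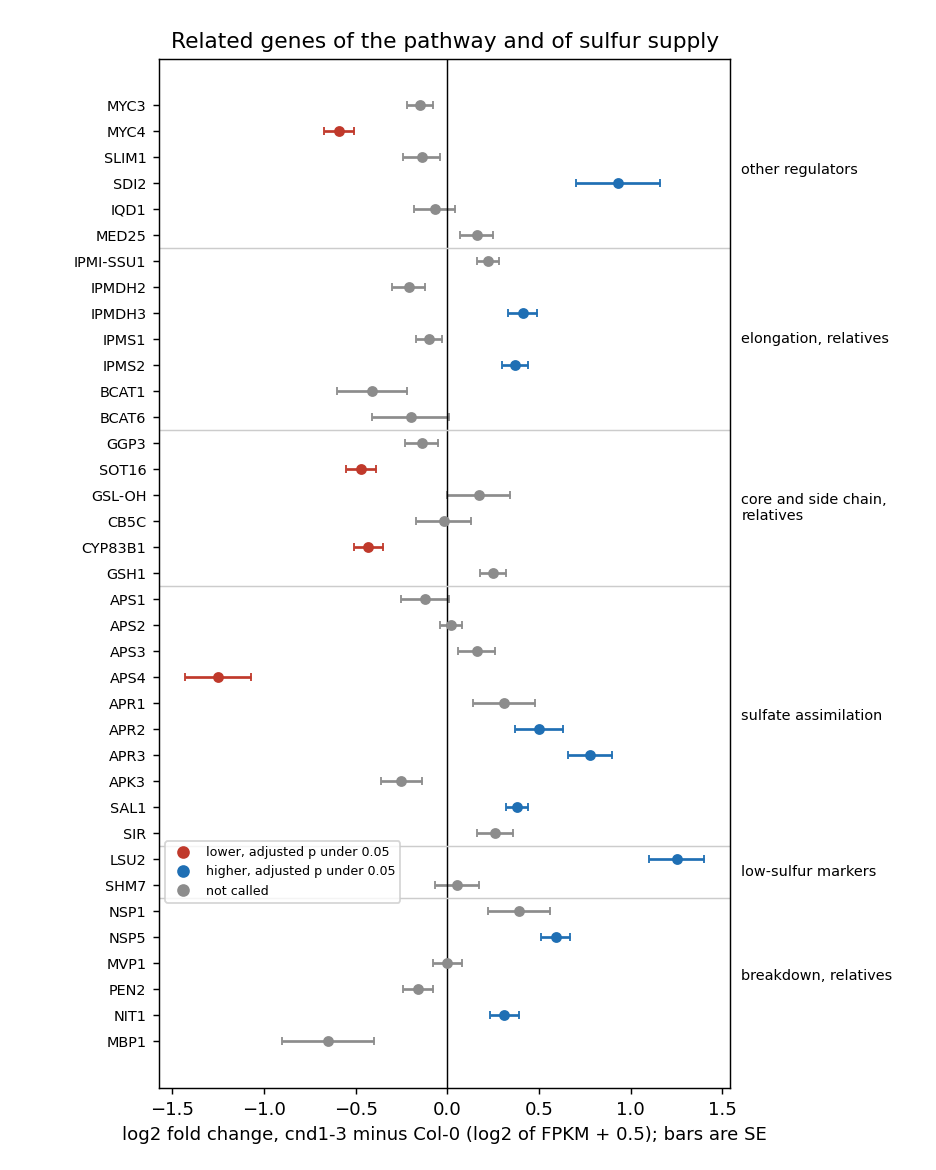
Log2 fold change of FPKM plus 0.5, cnd1-3 minus Col-0, for the tested genes of the lists of relatives, of sulfate assimilation and of sulfur shortage, with bars of 1 standard error and colour for the call. APS4 lies farthest left at -1.25 and LSU2 farthest right at 1.25, and called genes lie on both sides of 0.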

How the data were processed

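Per the labels' protocols, mRNA was captured with oligo-dT beads from total RNA and sequenced as read pairs. The authors deposited FPKM per gene and library; HISAT2, featureCounts, Subread, DESeq2 and the TAIR10 build are named in the submitters' processing notes, without roles. Strandedness is not given in the sources used here. Each of the 6 libraries was grouped by the genotype in the labels. Exon lengths, coordinates and sequences came from the TAIR10.1 annotation and assembly, which matched 32548 of 32948 loci. Multiplying FPKM by exon length returned whole reads, within 0.01, for 99.3% to 99.35% of the values above 0 that were checked per library. The check left out unmatched loci and genes with high read counts, ESM1 among them. The test was limma 3.58.1 in R 4.3.3 (eBayes with trend) on log2 of FPKM plus a pseudocount of 0.5, for 17096 genes with a mean of at least 0.5 FPKM, with Benjamini-Hochberg adjustment over all of them and a threshold of 0.05. The pseudocount draws fold changes of low genes toward 0. No count model was used as the main test, and the voom alternative used the recovered reads. Ratios of 10 gene pairs were compared by exact two-sided permutation.

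The members and lists were chosen with earlier results of these data known. Values in every library are given for called members and for the most abundant members of each step, and for others where libraries differed. From each list the text names up to 3 called genes with the largest change, or the most abundant ones where none was called. Further list genes, among them FAMA, MYC3, APS1, APS2, APS3, SHM7, SAL1, GSL-OH and CB5C, were named outside that rule after their values were seen. Members' overlaps with other genes and stretches of 75 bases found elsewhere were computed from the annotation and assembly. The procedure was tested on simulated data. Alternatives were pseudocounts of 0.1 and 1, median-ratio scaling, quantile normalization, no minimum or a minimum of 2 FPKM, eBayes without trend or robust, the replicate number as a block, voom and each library left out. Python 3.11.15 with numpy 2.4.6, pandas 2.3.3, scipy 1.17.1 and matplotlib 3.10.9 did the rest.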

Additional observations from a re-analysis of the deposited data

How the results depend on the processing

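No gene result changed direction past the threshold. Of 940 gene results over 59 named genes and 16 alternative settings, 862 stayed on the same side of the threshold. Another 66 fell short of it, 12 newly passed it, and 30 values of uncalled genes changed sign. Most of these genes were uncalled in the main fit, so the 862 do not measure how stable the calls are. Of 6 fits without a library and 10 other fits, MYB28 kept its call in 1 and 6, and MYB29 in 2 and 8. GSTF10 kept it in 1 and 7, UGT74C1 in 1 and 8, ESP in 3 and 10, and ESM1 in 6 and 10. The CYP79F2 to CYP79F1 log2 ratio difference moved to -0.85 with a pseudocount of 0.1. The count of pathway genes called lower, 6, became 3 with no minimum level (where 4.4% of all genes were lower), 3 with median-ratio scaling (6.55%) and 2 with eBayes without trend (6.72%). It ranged from 1 to 9 when a library was left out, where 3.59% to 7.55% of all genes were lower. Pathway genes called higher, 0, became 1 with median-ratio scaling (BCAT3), where 5.51% of all genes were higher. With the replicate block they also became 1 (FMO-GS-OX4, limma adjusted p = 0.0413), where 5.97% of all genes were higher. Over all genes, 598 higher calls became 942 with median-ratio scaling, 980 with quantile normalization and 1020 with the replicate block, and 259 to 546 with a library left out, while 1298 lower calls became 1120 and 999 under these scalings and 611 to 1291 with a library left out. These scalings moved the median of all genes by 0.05 and 0.07. The replicate block gave 7 lower pathway genes (10.9% of all genes), TGG1 among them (adjusted p = 0.0127). Libraries with the same number deviated together with correlations of 0.03, 0.16 and 0.26, and those with unlike numbers with -0.24 to 0.08. The first cnd1-3 library correlated better with the second Col-0 library (0.08) than with the first. On the second principal component the first libraries (5 in cnd1-3 and 3.7 in Col-0) and the second (11.5 and 12.1) also lay alike. Whether the numbers pair the libraries is thus not settled, and the main test did not pair them. The median over the pathway ranged from -0.27 to -0.03 with a library left out. The cause of these changes was not tested. Genes under about 1 FPKM rest on few reads, which limits MAM3, CYP79F2, FMO-GS-OX2 and MYB76.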

Other observations

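Outside the 40 loci, 4 of the 6 tested relatives of the core and side-chain genes had their highest cnd1-3 value in the third library, GSL-OH and CB5C among them. Of all tested genes, 30.5% did, and 0 of the 7 tested relatives of the elongation enzymes. All 7 of those were highest in the second cnd1-3 library, as were 41.6% of all tested genes. The side-chain genes BZO1 and SCPL17 were at or near 0 in every library. GSL-OH (AT2G25450), a dioxygenase that hydroxylates alkenyl side chains, was at 176, 211 and 280.3 FPKM in cnd1-3 and at 190.1, 166 and 233 in Col-0, and was not called (limma adjusted p = 0.576). It and CB5C, a cytochrome b5 at 16.7, 18.5 and 25.3 FPKM in cnd1-3 and 17.9, 21.4 and 21.1 in Col-0, were named after their values were seen.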
